A study of Mus musculus with 12 samples.

Results

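The genes described here encode the proteins of the mitochondrial ribosome. They are the rows of the deposited count table whose Entrez identifier carries a mouse symbol of the Mrpl or Mrps series (Mrpl or Mrps, a number and at most 1 further letter), with pseudogenes left out. The rule found 78 genes among the 27179 identifiers in the table. Of these, 51 belong to the large subunit (the Mrpl genes with Mrps30 and Mrps18a), 26 belong to the small subunit, and Mrps36 was counted in neither, because its product is now described as a component of the alpha-ketoglutarate dehydrogenase complex.

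The mitochondrial ribosome translates the few proteins encoded by mitochondrial DNA, all of them subunits of the respiratory chain or of the ATP synthase. All of its own proteins are encoded in the nucleus, made in the cytosol and imported, so that its assembly joins nuclear products to rRNA made inside the organelle. Some of the proteins have counterparts in the bacterial ribosome, from which the organelle's ribosome descends, and others are found only in mitochondria. Tetracycline antibiotics, doxycycline among them, bind bacterial ribosomes and can inhibit mitochondrial translation.

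The measurements are RNA-seq counts of poly(A) RNA in the MC38-idAdpgkG line, made from the C57BL/6 mouse colon carcinoma MC38. The line stably carries a construct that makes the neoantigen Adpgk(R304M) fused to turboGFP when doxycycline is given and whose product can be degraded with dTag13, a small molecule that brings tagged proteins to a ubiquitin ligase. All 4 groups carried the construct and received mouse IFNg at 20 ng/mL for 51 h. The control group received IFNg alone. The doxycycline group also received 1 µg/mL doxycycline for the whole 51 h. The dTag13 group received 1 µM dTag13 for the last 3 h, after 48 h of IFNg. The combined group received doxycycline for the whole time and dTag13 for the last 3 h. Each group has 3 libraries, which the design text calls technical triplicates of a single biological sample. The p-values below therefore measure only the spread between libraries of 1 culture per treatment, and a difference between treatments cannot be told apart from a difference between cultures. The labels name no vehicle for the control.

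Library totals ranged from 22165538 to 32809573 counts, and the 78 genes took between 0.421% and 0.548% of each. Adpgk, the gene of the induced construct, stood at 158 to 162 CPM (counts scaled to the size of each library) in the control libraries and 177 to 185 with dTag13. It stood at 1320 to 1350 CPM with doxycycline and 1350 to 1380 in the combined group, which matches the labels; these reads include the endogenous gene. The labelled colon origin was set against epithelial markers: none of 9 (Epcam and Cdx2 at 0 reads in every library among them) passed the filter on low counts, with a summed level of 0.22 to 0.809 CPM. Of 5 fibroblast markers, Dcn, Pdgfra and Pdgfrb passed. The collagen genes Col1a1 and Col1a2 did not, at no more than 0.193 and 0.351 CPM in any library. The list summed to 320 to 339 CPM in the control, 335 to 351 with doxycycline, 353 to 361 with dTag13 and 299 to 316 in the combined group. In the control, Dcn (158 to 174 CPM) and Pdgfra (156 to 160 CPM) made up nearly all of the sum. None of 4 leukocyte markers passed (Cd3e at 0 reads), and the 2 endothelial markers summed to 1.92 to 4.15 CPM. The part of these markers in the results below was not tested.

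Promoter sequences are shown for 4 members at the ends of the response to dTag13 alone, picked after their values were seen: Mrpl33 and Mrpl53, which rose, and Mrps2 and Mrps5, which fell. Each window runs from 110 bases before to 10 bases after a transcription start, 5′ to 3′ on the gene's own strand, from RefSeq (GRCm38.p6). For Mrps2 this start lies inside the annotated gene, which begins at base 28465951 of chr2, so its window does not cover that outer start. Capitals mark matches to 3 short motifs of factors known to act on nuclear genes for mitochondrial proteins: the core of the NRF1 motif (GCGCATGC), the ETS motif bound by GABPA (CCGGAAG) and the YY1 motif (AAGATGGC), each searched on both strands. The windows lie at chr5:31613841-31613960 (Mrpl33, plus strand), chr6:83108998-83109117 (Mrpl53, plus), chr2:28467956-28468075 (Mrps2, plus) and chr2:127587316-127587435 (Mrps5, plus).
Mrpl33: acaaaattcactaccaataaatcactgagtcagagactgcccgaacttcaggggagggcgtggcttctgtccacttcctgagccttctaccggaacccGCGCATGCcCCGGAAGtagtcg
Mrpl53: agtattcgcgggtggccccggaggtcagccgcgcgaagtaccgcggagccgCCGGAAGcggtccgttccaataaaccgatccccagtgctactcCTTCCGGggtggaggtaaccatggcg
Mrps2: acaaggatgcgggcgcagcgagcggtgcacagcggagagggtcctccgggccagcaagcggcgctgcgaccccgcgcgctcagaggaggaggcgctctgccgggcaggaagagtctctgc
Mrps5: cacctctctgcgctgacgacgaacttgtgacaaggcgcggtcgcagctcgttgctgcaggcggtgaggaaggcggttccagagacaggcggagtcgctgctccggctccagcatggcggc

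In Mrpl33 a core NRF1 match and an ETS match stand side by side at the start of the gene. Mrpl53 holds an ETS match on each strand. No match to the 3 motifs lies in the windows of Mrps2 and Mrps5. A promoter of 300 bases (250 before and 50 after the start) was at hand for 69 of the 78 members and for 27025 genes in all. The ETS motif was found in 26 of the 69 members (37.7%) and in 9.9% of all genes. The YY1 motif was found in 12 members (17.4%, against 3.2% of all genes) and the NRF1 core in 8 (11.6%, against 3.0%). Members that rose and members that fell with dTag13 alone each included some with a match and some without. No match was found in the 300 bases of Mrpl14, which rose by 0.47 on the log2 scale with dTag13 alone beside 0.51 for Mrpl33. As for Mrps2, the start used for Mrpl14 lies inside the annotated gene, which begins at base 45685722 of chr17, so its outer start was not searched. Mrps18b, which fell, holds NRF1 core and ETS matches and Mrpl35, which also fell, a YY1 match. With dTag13 alone, the median log2 fold change was 0.10 for 8 members with the NRF1 core and 0.16 for 60 without it, 0.19 for 26 with the ETS motif and 0.13 for 42 without, and 0.13 for 11 with the YY1 motif and 0.16 for 57 without. The differences between these medians were not tested. The matches are a description of the letters and not of binding.

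Most members were expressed at moderate levels in the control cells. Levels per length, in CPM per kilobase of transcript, had a median of 41.1 over the 78 members, against 16.02 over all genes tested that have a length and 106 over 81 genes for cytosolic ribosomal proteins. The highest were Mrps6 at 288, Mrpl13 at 176, Mrpl42 at 147, Mrps23 at 133 and Mrpl20 at 129 CPM per kilobase. Mrps6 shares exon sequence with Slc5a3, a sodium/myo-inositol transporter, so its level may include reads of that gene.

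The lowest levels per kilobase were those of Mrpl36 at 0.235, Mrpl23 at 3.88, Mrps25 at 6.90, Mrpl1 at 9.98 and Mrpl35 at 10.7. Mrpl36, the counterpart of the smallest protein of the bacterial large subunit, was the only member that did not pass the filter, with 51 reads over the 12 libraries. Its libraries held 5, 2 and 8 reads in the control, 5, 3 and 10 with doxycycline, 2, 5 and 1 with dTag13 and 1, 4 and 5 in the combined group. These counts overlap between all groups, and a difference was not detectable at this depth. Mrpl23 passed with 966 reads in all, and a pseudogene of it is annotated. The 77 members that passed are those tested below.

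Summed over the members, transcripts were lowest with doxycycline alone and highest in the combined group. The control libraries held 4503, 4465 and 4441 CPM in all members together. The doxycycline libraries held 4236, 4240 and 4253 CPM, and the dTag13 libraries 5054, 4938 and 4986 CPM. The combined group held 5411, 5329 and 5343 CPM. No 2 groups overlapped. The sum was 5.06% lower with doxycycline than in the control, 11.7% higher with dTag13 than in the control, 26.4% higher in the combined group than with doxycycline and 7.37% higher in the combined group than with dTag13. In these bulk libraries, fewer cells that make a transcript and less of it per cell cannot be told apart.

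Both subunits followed this order. The large subunit summed to 2978 ± 16.4 CPM in the control (SD, n = 3 libraries, as for the following sums) and 2840 ± 15.6 with doxycycline. With dTag13 it reached 3332 ± 29.1 CPM, and in the combined group 3601 ± 34.0. The small subunit stood at 1484 ± 15.1, 1397 ± 20.7, 1653 ± 28.4 and 1751 ± 15.7 CPM in the same order of groups. Gene by gene, 69 of the 77 members (89.6%) had their highest group mean in the combined group, against 30.2% of all genes tested, and 58 (75.3%) their lowest with doxycycline alone, against 26.6%. The full order from combined through dTag13 and control to doxycycline held in 48 members (62.3%, against 12.2% of all genes).

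**Figure D1:**
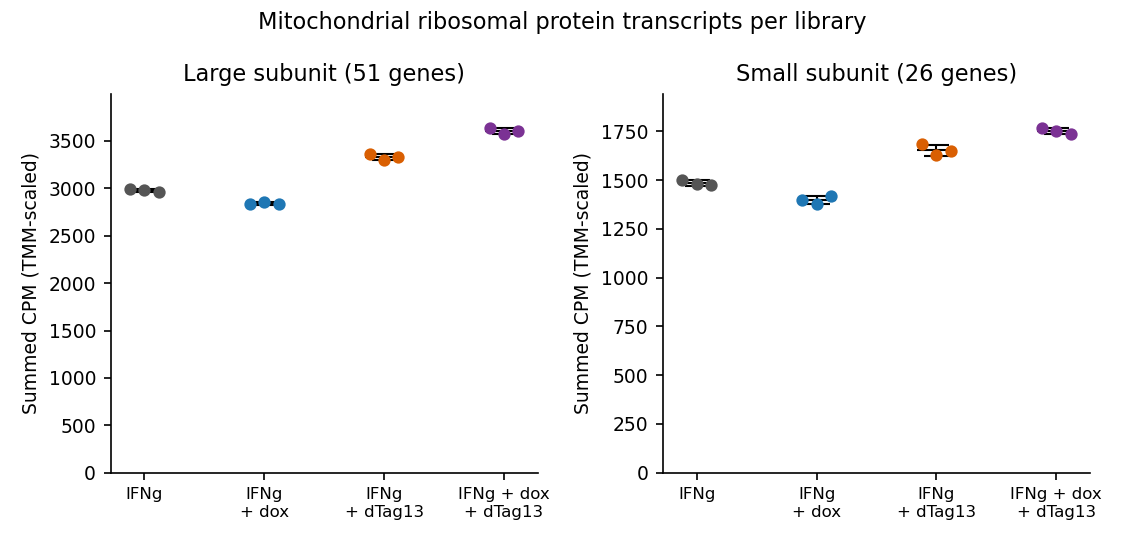
Summed CPM (vertical axis, from 0) of the large subunit genes (left) and the small subunit genes (right) in each of the 12 libraries, by treatment. Points are libraries, and the bars give the mean and SD of 3 libraries; in both panels the doxycycline libraries lie lowest and the combined group highest, with no overlap.

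Doxycycline against control covers the inducer together with the product it induced, without degradation. No group received doxycycline without carrying the construct, so the effects of drug and product cannot be told apart. With doxycycline, 22 members fell and 2 rose (edgeR quasi-likelihood test, Benjamini-Hochberg adjusted p below 0.05 over 12910 genes), and 53 were not called. Over all genes tested, 18.7% were called lower and 14.8% higher, so the members called lower (28.6%) exceeded that share and the members called higher (2.6%) fell short of it. The median log2 fold change was -0.07 over the members and -0.01 over all genes. The changes were small, and the largest of them in either direction was that of Mrpl9.

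Mrpl9, the counterpart of a bacterial protein that reaches out from the large subunit, stood at 125, 120 and 105 CPM in the control and at 96.6, 96.2 and 96.0 with doxycycline. The groups did not overlap, and the 3 control libraries were far more spread than the 3 doxycycline libraries. Its log2 fold change was -0.28 (SE 0.080, adjusted p = 0.027). The call was lost without control replicate 1 or 2, without any 1 of the doxycycline libraries and when only library size was used for scaling. Exons of Mrpl9 overlap those of Oaz3, an ornithine decarboxylase antizyme, on the opposite strand.

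Mrpl20, a bacterial-type protein known for its part in large subunit assembly, held 66.2, 63.2 and 62.2 CPM in the control and 52.6, 55.2 and 54.1 with doxycycline. Mrpl16, which lies next to the tRNA sites, held 47.7, 44.6 and 45.9 CPM against 39.0, 40.6 and 38.3. Mrps26, a small subunit protein found only in mitochondria, held 130, 123 and 123 CPM against 104, 107 and 111. In each of these 3 genes, every doxycycline library lay below every control library. The log2 fold changes were -0.24 for Mrpl20 (SE 0.037, adjusted p = 1.38e-06), -0.23 for Mrpl16 (SE 0.044, adjusted p = 6.31e-05) and -0.22 for Mrps26 (SE 0.033, adjusted p = 1.71e-06), and all 3 calls held in each alternative tried.

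The 2 members that rose with doxycycline were Mrpl24 and Mrpl45, both at the side of the large subunit where the new protein leaves. Mrpl45, which ties the ribosome to the inner membrane, held 96.3, 97.4 and 98.7 CPM in the control and 103, 104 and 102 with doxycycline, a log2 change of 0.08 (SE 0.030, adjusted p = 0.039). For Mrpl24, a bacterial-type protein at the tunnel exit, the values were 33.8, 37.1 and 32.1 against 37.8, 38.7 and 36.6 CPM, which overlap, with a log2 change of 0.13 (SE 0.051, adjusted p = 0.042). Of 20 alternatives, 10 removed the call of Mrpl45 and 8 that of Mrpl24. Leaving out control replicate 1, dTag13 replicate 3, or doxycycline replicate 1 or 2 removed both. The call of Mrpl45 was also lost without control replicate 2 or doxycycline replicate 3, and that of Mrpl24 without control replicate 3 or combined replicate 3.

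By subunit, 16 of 50 large subunit members fell and 2 rose with doxycycline, and 6 of 26 small subunit members fell and none rose. Members listed as having a bacterial counterpart (12 of 45 lower, 1 higher) and the other members without Mrps36 (10 of 31 lower, 1 higher) gave similar shares. The second class is mostly mitochondria-specific but also holds Mrps18a and Mrps18b, paralogs of a bacterial protein. The number of members called lower rested in part on single libraries: it was 11 without control replicate 2, 10 without doxycycline replicate 1 and 14 without doxycycline replicate 2. It was 10 of the 77 when only library size was used for scaling. Under that scaling 1609 of all 12910 genes were called lower, so the members' share was then near that of all genes. In 32 members the CPM of the 2 groups did not overlap, against 43.9% of all genes tested. Doxycycline was lower in 30 of these (24.1% of all genes) and higher in 2 (19.8%).

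The comparison of dTag13 with control covers 3 h of exposure in cells whose construct had not been induced. After dTag13, 49 members rose and 4 fell, and 24 were not called. Over all genes tested, 30.0% were called higher and 32.1% lower; the members' shares were 63.6% and 5.19%. The median log2 fold change was 0.16 over the members and 0.02 over all genes. In 54 members the groups did not overlap, against 65.5% of all genes tested. In 50 of these dTag13 was higher (32.2% of all genes) and in 4 lower (33.3%).

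Mrpl33, a small bacterial-type protein of the large subunit (Entrez 66845, the first promoter shown), had the highest fold change. It held 50.2, 49.4 and 46.9 CPM in the control and 69.5, 72.0 and 67.2 with dTag13. All dTag13 libraries lay well above all control libraries. The log2 fold change was 0.51 (SE 0.043, adjusted p = 1.45e-13), an increase of 42.5%. With the counts corrected for transcript length and GC content it was 0.26, below the 0.43 of Mrpl14.

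Mrpl14, which lies at the face of the large subunit that meets the small one, held 24.7, 23.7 and 24.2 CPM in the control and 36.7, 30.8 and 33.3 with dTag13, a log2 change of 0.47 (SE 0.057, adjusted p = 2.36e-09). Mrpl53, found only in mitochondria, held 38.6, 37.5 and 39.1 CPM against 51.5, 53.2 and 51.1, a log2 change of 0.44 (SE 0.043, adjusted p = 8.95e-12). Mrps33, a mitochondria-specific protein of the small subunit, held 14.3, 16.5 and 14.5 CPM against 20.8, 18.5 and 19.0, a log2 change of 0.37 (SE 0.068, adjusted p = 1.22e-05). None of these groups overlapped, but Mrps33 was not called with the length and GC correction, at 0.10. Mrpl14 shares exon bases with Tmem63b on the opposite strand and Mrpl53 with a predicted gene on the same strand.

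The 4 members that fell with dTag13 were Mrps2, Mrps5, Mrps18b and Mrpl35. Mrps2, a bacterial-type protein of the small subunit body (Entrez 118451), held 47.7, 51.3 and 55.1 CPM in the control and 46.6, 41.4 and 45.9 with dTag13, a log2 change of -0.20 (SE 0.050, adjusted p = 0.000654). Mrps5, which borders the path of the incoming mRNA, held 47.3, 47.6 and 46.9 CPM against 43.4, 37.4 and 42.8, also -0.20 (SE 0.049, adjusted p = 0.000556). In both genes the dTag13 libraries lay below all control libraries.

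Mrpl35 (log2 fold change -0.13, adjusted p = 0.034) and Mrps18b (-0.13, adjusted p = 0.040) were nearer the threshold. Both calls were lost with DESeq2, with library size scaling, and without control replicate 3 or dTag13 replicate 1 or 2; that of Mrpl35 was also lost without control replicate 2. The call of Mrps5 was lost with library size scaling, under which Mrps2 was the single member called lower. When the dependence of the counts on transcript length and GC content was corrected, 34 members were called higher and 9 lower. Of all 12910 genes tested, 3288 were then called higher and 3921 lower.

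Doxycycline plus dTag13 against doxycycline gives the response to the same 3 h of dTag13 in induced cells. Here 69 members rose, 1 fell and 7 were not called. Over all genes tested, 30.7% were called higher and 33.4% lower, and the members' shares were 89.6% and 1.3%. The median log2 fold change was 0.35 over the members and 0.00 over all genes. In 67 members the groups did not overlap, against 67.2% of all genes. The combined group was higher in 66 of them (32.1% of all genes) and lower in 1 (35.0%).

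Mrpl33 again led, at 49.7, 44.6 and 48.5 CPM with doxycycline and 79.9, 74.7 and 82.1 in the combined group. The log2 fold change was 0.73 (SE 0.043, adjusted p = 3.21e-18), an increase of 65.9%. With the length and GC correction it was 0.43, below the 0.53 of Mrpl14. Mrps16, a bacterial-type protein needed for small subunit assembly, held 36.5, 38.5 and 39.0 CPM against 61.2, 56.8 and 59.2, a log2 change of 0.64 (SE 0.047, adjusted p = 3.78e-15). Neither gene's groups came near each other.

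Mrpl41, a large subunit protein found only in mitochondria, held 19.3, 19.2 and 20.2 CPM with doxycycline and 29.0, 28.8 and 31.0 in the combined group, a log2 change of 0.60 (SE 0.056, adjusted p = 2.07e-12). Mrpl14 rose by 0.62 and Mrpl53 by 0.60 on the log2 scale in the same comparison. Mrps2 was the single member that fell, from 47.6, 47.9 and 48.0 CPM to 42.3, 46.6 and 42.1, a log2 change of -0.13 (SE 0.051, adjusted p = 0.023). That call was lost with DESeq2 and without doxycycline replicate 3 or combined replicate 1 or 3. The 7 members not called were Mrpl35, Mrpl39, Mrpl45, Mrps5, Mrps12, Mrps18b and Mrps27, a list given in full after its values were seen.

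**Figure D2:**
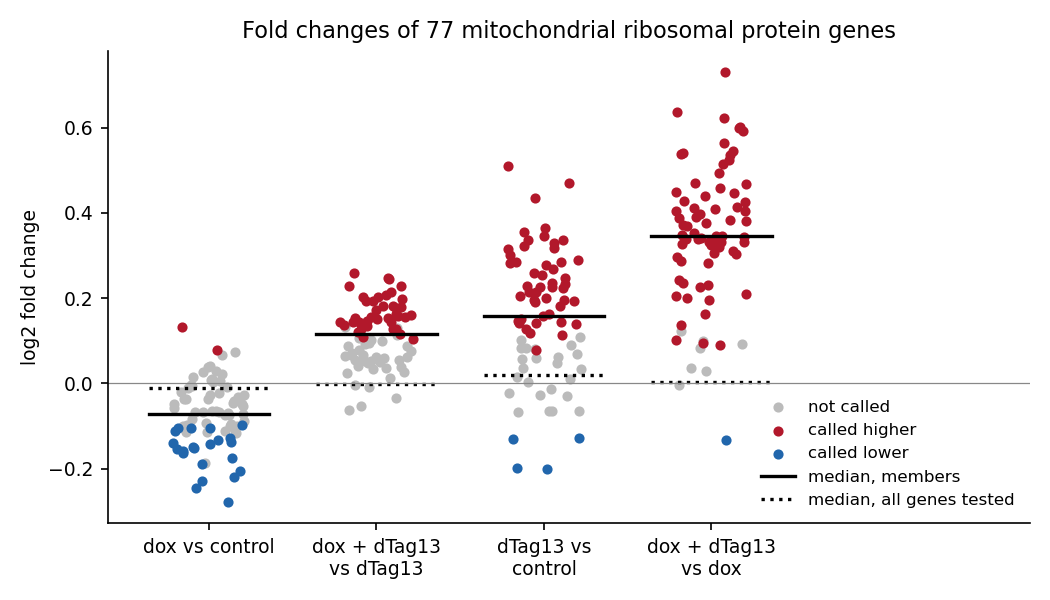
Log2 fold change (vertical axis) of each of the 77 members tested in the 4 pairwise comparisons (horizontal axis); points are genes, coloured by whether the edgeR test called them higher, lower or not. Solid lines mark the members' median and dotted lines the median of all genes tested; the members' median lies at -0.07 for doxycycline against control, at 0.12 and 0.16 in the next 2 columns and at 0.35 in the last.

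Gene by gene, the responses to dTag13 without and with doxycycline, which share no libraries, ran in parallel. Each of the 49 members called higher without doxycycline was also called higher with it. Over all genes tested, this held for 2767 of the 3877 called higher without doxycycline. Of the members tested, 63.6% were called higher in both, against 21.4% of all genes tested. Across the 77 members the log2 fold changes correlated with Pearson's r = 0.838 and Spearman's rho = 0.792; across all genes tested the values were 0.676 and 0.736. These are descriptions across genes, which share libraries and depth and are not independent replicates.

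The effects of doxycycline without and with dTag13, which also share no libraries, were only loosely related (Pearson's r = 0.265 and Spearman's rho = 0.265 over 77 members, and 0.365 and 0.151 over all genes). In the presence of dTag13, 39 members rose with doxycycline and none fell, against 10.7% and 9.64% of all genes tested. The median log2 fold change was 0.12 over the members and -0.00077 over all genes, and the groups did not overlap in 43 members, against 34.3% of all genes. All 43 were higher in the combined group, and none lower; over all genes the shares were 17.6% and 16.7%. At an unadjusted p below 0.05 the counts were 46 higher and 0 lower. With DESeq2 they were 35 and 0, and with library size scaling 25 higher and 0 lower.

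Mrpl41 changed most in this comparison, from 24.9, 25.1 and 24.2 CPM with dTag13 to 29.0, 28.8 and 31.0 in the combined group, a log2 change of 0.26 (SE 0.054, adjusted p = 0.000379). Mrpl12, a stalk protein of the large subunit that also binds the mitochondrial RNA polymerase, held 154, 156 and 156 CPM against 186, 185 and 182, a log2 change of 0.25 (SE 0.026, adjusted p = 1.01e-09). Mrpl52 held 36.1, 37.3 and 38.2 CPM against 44.3, 43.7 and 44.3 (log2 fold change 0.25, adjusted p = 0.000155). For each of these, every library of the combined group exceeded every dTag13 library.

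**Figure D3:**
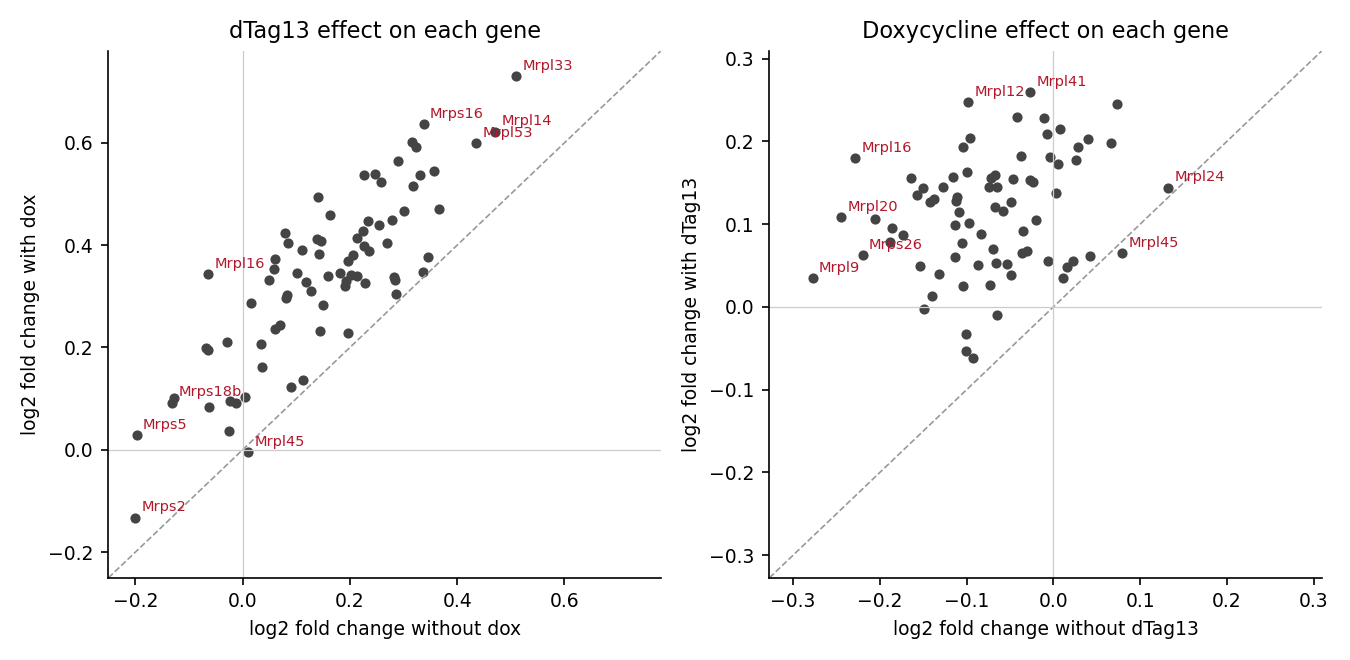
Log2 fold change of each of the 77 members for dTag13 (left: horizontal axis without doxycycline, vertical axis with it) and for doxycycline (right: horizontal axis without dTag13, vertical axis with it). Points are genes and the dashed line marks equal effects; 76 of 77 points lie above it in each panel, because both panels show the same difference of differences.

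That difference of differences, the interaction of doxycycline and dTag13, was tested in the same fit. A positive value means that dTag13 raised a transcript more, or lowered it less, when doxycycline was present. The interaction was called above 0 in 47 members and below 0 in none, against 13.2% and 9.64% of all genes tested. Its median was 0.18 over the members and 0.01 over all genes, and 76 of the 77 values were positive. The count fell to 30 without dTag13 replicate 2 and to 19 when only library size was used for scaling; with DESeq2 it was 42 above and 0 below, and at an unadjusted p below 0.05 it was 59 above and 0 below.

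Mrpl16 had the largest interaction, at 0.41 (SE 0.062, adjusted p = 3.54e-06). Without doxycycline it stood at 44.3, 42.8 and 45.1 CPM with dTag13, beside 47.7, 44.6 and 45.9 in the control, and these groups overlapped. With doxycycline it stood at 47.6, 51.3 and 50.5 CPM in the combined group, above all 3 libraries with doxycycline alone (39.0, 40.6 and 38.3). Mrpl20 (0.35, adjusted p = 1.93e-06) and Mrpl12 (0.35, adjusted p = 3.38e-09) came next.

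In 10 members, 13.0% of those tested, transcripts fell with doxycycline alone and rose with doxycycline when dTag13 was present, a pattern that 1.92% of all genes tested showed. They were Mrpl11, Mrpl12, Mrpl16, Mrpl20, Mrpl21, Mrpl22, Mrpl47, Mrpl57, Mrpl58 and Mrps10, of which Mrpl21, Mrpl47, Mrpl57 and Mrps10 were named after their values were seen. Several of these calls were near the threshold. The lower call with doxycycline was lost for Mrpl12 without doxycycline replicate 1, for Mrpl22 without control replicate 2 or 3 or doxycycline replicate 1 or 3, and for Mrpl58 without control replicate 2, doxycycline replicate 1 or 2 or dTag13 replicate 1 or 2. The higher call in the combined group was lost for Mrpl20 without dTag13 replicate 1 or 3 or combined replicate 1 or 3, and for Mrpl22 without any 1 of the dTag13 libraries or combined replicate 2 or 3. In the plot of single genes, Mrpl12 and Mrpl16 show this reversal, while Mrps2 and Mrpl45 do not share the members' common order.

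**Figure D4:**
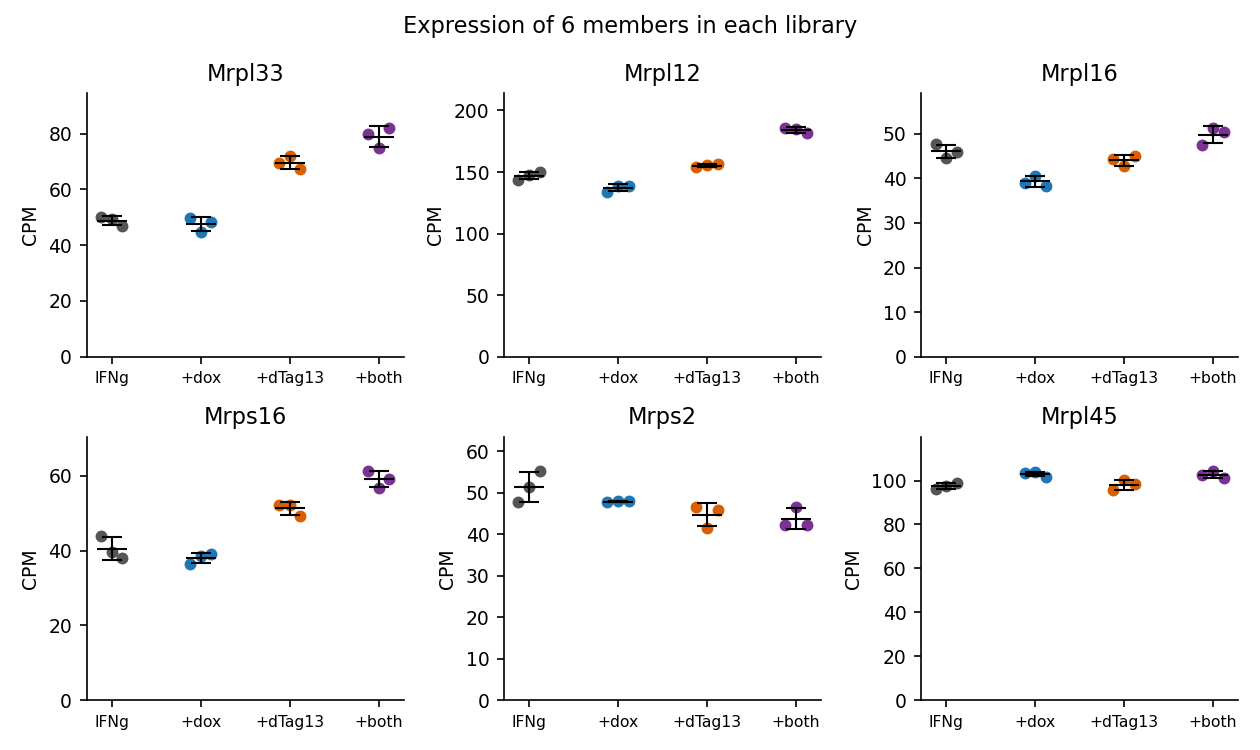
CPM (vertical axis, from 0, a different scale for each gene) of Mrpl33, Mrpl12, Mrpl16, Mrps16, Mrps2 and Mrpl45 in every library, by treatment added to IFNg. Points are libraries and bars the mean and SD of 3; Mrpl33 and Mrps16 are higher in both dTag13 groups, Mrps2 is lower there than in the control, and Mrpl45 is slightly higher in both doxycycline groups.

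By functional place in the ribosome, the stalk proteins, which recruit the translation factors, come first. Mrpl10, which anchors the stalk, rose by 0.14 on the log2 scale with dTag13 alone and by 0.23 with dTag13 in induced cells (adjusted p = 3.65e-05 and 4.93e-09). Mrpl12 rose by 0.08 and by 0.42 in the same comparisons (adjusted p = 0.00919 and 1.78e-17). Its first call was lost without control replicate 1, without dTag13 replicate 3 and with the length and GC correction. Mrpl11, at the base of the stalk, was not called with dTag13 alone (log2 fold change 0.08, adjusted p = 0.067) and rose by 0.40 in induced cells (adjusted p = 2.22e-11). The interaction was called for Mrpl11 at 0.32 and Mrpl12 at 0.35, and not for Mrpl10 at 0.09 (adjusted p = 0.12).

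Around the exit of the peptide tunnel, the bacterial-type proteins Mrpl22, Mrpl23 and Mrpl24 and the mitochondria-specific Mrpl45 were followed, with Mrpl44, a large subunit protein related to RNase III. With dTag13 alone, Mrpl24 was the only called member of these 5, at 0.34 on the log2 scale (adjusted p = 2.51e-07); its exons overlap those of Rrnad1 on the opposite strand. In induced cells Mrpl22 rose by 0.35, Mrpl24 by 0.35, Mrpl44 by 0.30 and Mrpl23 by 0.39 on that scale. The call of Mrpl23, which rests on few reads, had an adjusted p of 0.045 and was lost in 9 of 20 alternatives, among them the omission of any 1 of 7 libraries. Mrpl45 did not follow, with log2 fold changes of 0.01 without and -0.00 with doxycycline.

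Mrpl3 and Mrpl4 are bacterial-type proteins of the large subunit core. Mrpl3 rose by 0.19 with dTag13 alone and by 0.32 in induced cells on the log2 scale (adjusted p = 8.68e-06 and 2.4e-10). For Mrpl4 the values were 0.04, not called, and 0.16 (adjusted p = 0.000708). Mrpl58, a ribosomal protein with the fold of a peptide release factor, rose by 0.16 and by 0.46 (adjusted p = 0.000258 and 7.94e-14).

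In the small subunit, Mrps12 and Mrps7 are bacterial-type proteins near the decoding site and the mRNA exit. Mrps12 was called in none of the 4 pairwise comparisons, as was Mrpl39; it held 23.6, 25.1 and 25.7 CPM in the control and 26.6, 28.01 and 27.5 in the combined group. Mrps7 rose by 0.21 with dTag13 alone and by 0.38 in induced cells on the log2 scale (adjusted p = 4.32e-07 and 1.41e-13). Mrps22 and Mrps34, both found only in mitochondria and known as genes of inherited mitochondrial disease, rose by 0.28 and 0.15 with dTag13 alone and by 0.45 and 0.41 in induced cells. With the length and GC correction the first value of Mrps22 was 0.09, and its call was lost. Exons of Mrps34 overlap those of Mapk8ip3 by up to 971 bases on the opposite strand.

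The 3 paralogs of bacterial protein S18 take different places in the mitochondrial ribosome and gave different values here. With dTag13 alone, Mrps18a rose by 0.13 and Mrps18c by 0.29 on the log2 scale (adjusted p = 0.00282 and 2.84e-05), and Mrps18b had the called decrease of -0.13 given above. In induced cells, Mrps18a rose by 0.31 and Mrps18c by 0.56, and Mrps18b stood at 0.09 and was not called (adjusted p = 0.16). The call of Mrps18c with dTag13 alone was lost with the length and GC correction, at 0.05. The differences between the paralogs were not tested. Mrps36 gave 0.23 with dTag13 alone, a call that 12 of 20 alternatives removed, and 0.33 in induced cells (adjusted p = 0.043 and 0.00474). The second call was lost with the length and GC correction, at 0.11.

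Mrpl46 and Mrps11 are neighbours on chromosome 7 that are read in opposite directions. In RefSeq their starts are separated by 41 bases (chr7:78783090-78783130), shown here on the plus strand, the strand of Mrps11, because both genes face it. None of the 3 motifs was found in these 41 bases. A YY1 match lies outside them, 107 bases before the start of Mrps11.
Mrpl46 and Mrps11: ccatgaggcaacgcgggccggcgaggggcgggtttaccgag

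The pair was named after its position and values were seen. With dTag13 alone, Mrpl46 rose from 21.8, 21.7 and 22.1 CPM to 27.1, 22.6 and 27.0, a log2 fold change of 0.23 (adjusted p = 0.00567). Mrps11 stood at 22.2, 22.1 and 22.1 CPM in the control and 22.3, 19.9 and 21.2 with dTag13, a log2 fold change of -0.07 that was not called. In induced cells both rose, by 0.54 and by 0.20 on the log2 scale. GENCODE exons of the 2 genes overlap by up to 173 bases on opposite strands, so reads in that stretch cannot be assigned where strand is not used.

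Over all members, exons of 23 of the 78 overlap those of another protein-coding gene in the GENCODE M21 annotation. Among the 55 members without such an overlap, 35 rose and 4 fell with dTag13 alone, and 47 rose and 1 fell in induced cells. By subunit, 32 of 50 large subunit members rose and 1 fell with dTag13 alone, beside 16 and 3 of 26 in the small subunit. In induced cells 47 of 50 rose and none fell, beside 21 and 1 of 26.

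Members have short transcripts, with a median of 1052 nt against 2151 nt for all genes tested, and short transcripts as a whole were higher after dTag13. Across the 77 members, log2 fold change and length correlated with Pearson's r = -0.278 for dTag13 alone and -0.321 in induced cells; across all genes with a length the values were -0.331 and -0.445. Within the class below 800 nt, the median log2 fold change with dTag13 alone was 0.22 for 24 members and 0.13 for all genes. From 800 to below 1500 nt it was 0.14 for 30 members and 0.12 for all genes.

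At 1500 nt or more, the median was 0.16 for 23 members and -0.06 for all genes with dTag13 alone, and 0.33 against -0.11 in induced cells. The distance between members and other genes was thus widest among long transcripts. With length and GC content corrected, the members' median was 0.08 with dTag13 alone and 0.24 in induced cells, and Mrpl20 changed from 0.14 to -0.02 and Mrpl45 from 0.01 to -0.14 with dTag13 alone. With dTag13 alone, the named members called without this correction and not with it were Mrpl12, Mrpl20, Mrpl52, Mrps18c, Mrps22, Mrps28, Mrps33 and Mrps36. In induced cells the calls of Mrpl23 and Mrps36 were lost with it. Named members whose calls held in induced cells but whose values became more than 1.5-fold smaller included Mrpl11 (from 0.40 to 0.22), Mrpl20 (from 0.49 to 0.26), Mrpl22 (from 0.35 to 0.17), Mrps18c (from 0.56 to 0.29), Mrps22 (from 0.45 to 0.25) and Mrps33 (from 0.47 to 0.17). In the combined group against dTag13 the correction removed the calls of Mrpl11, Mrpl14, Mrpl20, Mrpl22, Mrpl24, Mrpl33 and Mrps18c among the named members. The part of transcript length in the members' change was not tested further.

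**Figure D5:**
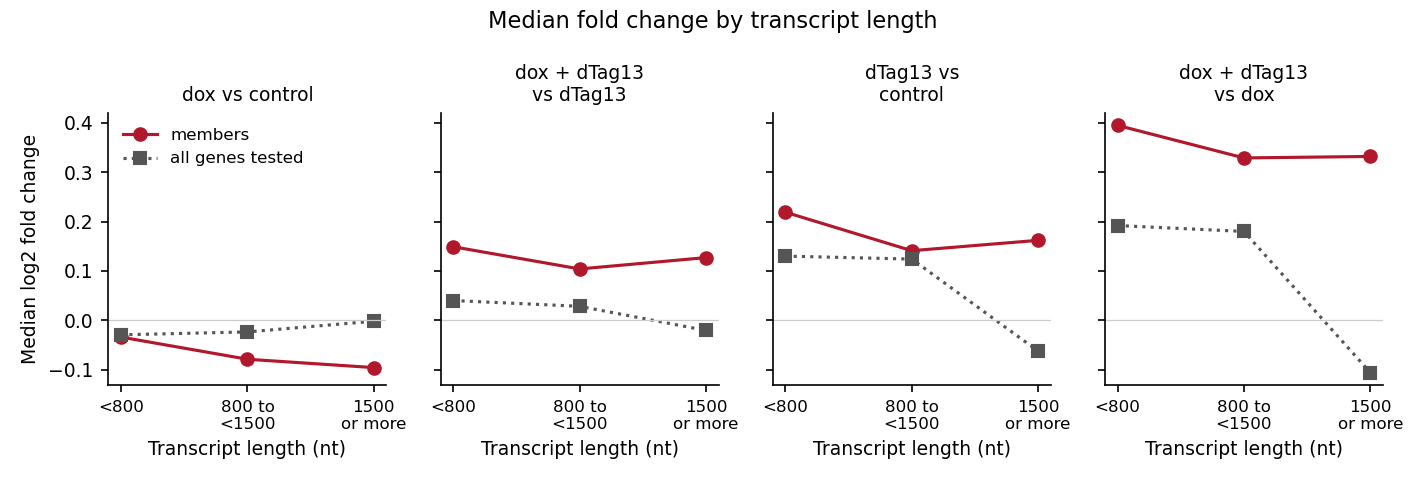
Median log2 fold change (vertical axis) of members (circles) and of all genes tested (squares) in 3 classes of transcript length (horizontal axis, nt), one panel per comparison. After dTag13 (the 2 panels on the right) the median of all genes drops below 0 at 1500 nt or more, where the members' median stays at 0.16 and 0.33.

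Genes that serve the same ribosome were read beside the members. Of 5 mitoribosomal proteins with other symbols, 3 rose with dTag13 alone (60.0%, against 30.0% of all genes tested). All 5 rose in induced cells (against 30.7% of all genes). None fell in either comparison, against 32.1% and 33.4% of all genes. Chchd1, a small subunit protein, rose by 0.52 and by 0.55 on the log2 scale (adjusted p = 1.84e-13 and 2.43e-14), and Ptcd3, which binds the small subunit, by 0.25 and by 0.37. With the length and GC correction the values of Chchd1 were 0.32 and 0.31 and the first of Ptcd3 was 0.11, all still called. Dap3, the GTP-binding protein of the small subunit, gave 0.02 and was not called with dTag13 alone; it rose by 0.14 in induced cells.

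Translation factors of the organelle moved both ways. Of 13 tested, 7 rose (53.8%, against 30.0% of all genes tested) and 4 fell (30.8%, against 32.1%) with dTag13 alone. In induced cells 8 rose (61.5%, against 30.7%) and 4 fell (30.8%, against 33.4%). The shares that fell were thus near those of all genes. Mtrf1l, a release factor, rose by 0.49 with dTag13 alone (adjusted p = 8.22e-07), and Mtif2, the initiation factor that brings the first tRNA, by 0.33 (adjusted p = 7.2e-09), or 0.10 and still called with the length and GC correction. The 4 that fell were named after their values were seen: the elongation factors Tufm at -0.32 and Gfm1 at -0.21, Gfm2, which splits the subunits for reuse, at -0.11, and the membrane insertase Oxa1l at -0.28. The same 4 fell in induced cells, at -0.31, -0.17, -0.14 and -0.27.

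Of 23 assembly factors tested, 11 rose (47.8%, against 30.0% of all genes tested) and 3 fell (13.0%, against 32.1%) with dTag13 alone. In induced cells 14 rose (60.9%, against 30.7%) and 2 fell (8.7%, against 33.4%). Tfb1m, which methylates the small rRNA, rose by 0.55 with dTag13 alone (adjusted p = 2.61e-05), and Mterf3, a regulator of mitochondrial transcription, by 0.41. With the length and GC correction Tfb1m stood at 0.36 and was still called, and Mterf3 stood at 0.09 and was not. Mrm2, a methyltransferase of the large rRNA, rose by 0.51 in induced cells, and Malsu1, which keeps the subunits apart during assembly, by 0.49. Those lower with dTag13 alone were Dhx30, an RNA helicase, at -0.40, Rcc1l at -0.24 and Noa1 at -0.11, all 3 named after their values were seen.

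Messages encoded in the mitochondrion itself, the templates of this ribosome, gave other counts. Of 13, 1 rose (7.69%, against 30.0% of all genes tested) and 7 fell (53.8%, against 32.1%) with dTag13 alone. In induced cells 12 rose (92.3%, against 30.7%) and none fell (33.4% of all genes). All 13 rose in the combined group against dTag13, where 10.7% of all genes did. Their sum was 22130 ± 1480 CPM in the control, 21510 ± 541 with doxycycline, 20110 ± 414 with dTag13 and 29420 ± 942 in the combined group (SD, n = 3 libraries). The control libraries overlap those with doxycycline, and the combined group stands above all others. With doxycycline alone 3 rose (23.1%, against 14.8% of all genes) and 4 fell (30.8%, against 18.7%). Of these, mt-Nd3 rose most at 0.40 (adjusted p = 0.000669, and 0.24 with the length and GC correction). The largest fall was that of mt-Nd5 at -0.33 (adjusted p = 0.000756). The length and GC correction changed several of the mitochondrially encoded values. In induced cells it took mt-Nd6 from 0.59 to -0.05 and mt-Nd5 from 0.57 to 0.20. With dTag13 alone it took mt-Nd1 from -0.34 to -0.78 and mt-Nd4l from -0.42 to -0.94. As background, these messages carry short poly(A) tails, and the libraries were made from poly(A) RNA.

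Genes for cytosolic ribosomal proteins were set beside the members. Of 78 tested, 41 rose (52.6%, against 30.0% of all genes) and 1 fell with dTag13 alone, and 72 rose (92.3%, against 30.7%) and none fell in induced cells. With doxycycline alone 10 fell (12.8%, below the 18.7% of all genes) and 1 rose (1.28%, against 14.8%). Their median log2 fold change was 0.22 with dTag13 alone and 0.55 in induced cells, beside 0.16 and 0.35 for the members. The difference between the 2 families was not tested, and many cytosolic ribosomal protein genes have processed pseudogenes that can share their reads.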

How the data were processed

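Poly(A) RNA-seq libraries from 4 treatments, 3 technical libraries each, were used. The authors deposited 1 table of whole-number counts per Entrez gene, whose column names carry the word Subread, per the file headers; bcl2fastq 2.17, featureCounts and the mm10 build are named in the submitters' processing notes. Aligner settings and the use of strand in counting were given by none of the labels or headers read, so reads of overlapping genes on opposite strands may be shared. RefSeq gave a symbol to 25275 of the 27179 identifiers and GENCODE M21 to 17 more. The 1887 without one took 2.10% of reads. They were kept in the library sizes and, where they passed the filter, in the genes tested.

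Counts were filtered by group with filterByExpr, scaled by TMM and fitted with 1 mean per group in edgeR 4.0.16 (R 4.3.3) by the quasi-likelihood test, all 12 libraries sharing 1 dispersion estimate. The p-values were Benjamini-Hochberg adjusted over 12910 genes and called below 0.05. CPM are TMM-scaled. The script was tested on simulated counts. Transcript length is the median of GENCODE M21 protein-coding transcripts, no longer than the RefSeq gene. Members, lists and tests were chosen with earlier results of these data known. Genes named are those with a stated role, the 4 called members with the largest change in each direction per comparison whose groups do not overlap, 3 for the interaction, up to 2 called genes per other list, and members that failed the filter. Alternatives were RLE size factors, library size alone, DESeq2 1.42.0, no filter or 1 CPM in 3 libraries, only the groups compared, a replicate block, a length and GC correction, and each library left out. Mtrfr, a release factor gene on the list of translation factors, was not matched.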

Additional observations from a re-analysis of the deposited data

Results flagged for a closer look

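The effect of dTag13 on a transcript differed with and without doxycycline for 47 members, by the test of the interaction; the values here are the response with doxycycline minus that without it, on the log2 scale. Among the large subunit members named by the rule, the values were 0.41 for Mrpl16, 0.35 for Mrpl12, 0.35 for Mrpl20, 0.32 for Mrpl11 and 0.30 for Mrpl58. Values of 0.29 were found for Mrpl22 and for Mrpl41, and 0.23 for Mrpl35. Mrpl33 and Mrpl44 stood at 0.22, Mrps18a at 0.18 and Mrpl53 at 0.16, the last a call that 14 of 19 alternatives removed; 6 removed that of Mrpl35.

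Small subunit members gave 0.30 for Mrps16, 0.28 for Mrps26, 0.27 for Mrps18c, 0.26 for Mrps34 and 0.24 for Mrps28. Lower values were 0.23 for Mrps5, 0.22 for Mrps18b, 0.18 for Mrps7 and 0.17 for Mrps22, and the calls of Mrps18b and Mrps22 were lost in 10 and 6 of 19 alternatives. Among the mitoribosomal proteins with other symbols it was 0.29 for Aurkaip1, 0.12 for Dap3 and 0.12 for Ptcd3. The call of Dap3 was lost in 9 alternatives. Assembly factors gave 0.36 for Mterf4, 0.31 for Ddx28, 0.27 for Trub2 and -0.42 for Tfb1m, and the release factor Mtrf1l gave -0.39; these were the 2 named genes with the opposite sign. The calls of Mterf4 and Tfb1m were lost in 9 and 8 alternatives. Mitochondrially encoded messages gave 0.89 for mt-Nd4l, 0.87 for mt-Nd1, 0.81 for mt-Nd6, 0.80 for mt-Nd5 and 0.39 for mt-Nd3.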

How the results depend on the processing

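With library size only, the members called lower with doxycycline were 10, those called lower with dTag13 were 1, those called higher in the combined group against dTag13 were 25 and in the interaction 19, and the medians were -0.0359, 0.2502, 0.3659, 0.0819 and 0.1113 for doxycycline, dTag13, the combined group against doxycycline and against dTag13, and the interaction. This scaling took the median of all genes with dTag13 alone from 0.0187 to 0.1102, and its calls over all genes were 2546 higher and 1609 lower for doxycycline, 5255 and 3115 for dTag13, 926 and 2131 for the combined group against dTag13, and 818 and 2423 for the interaction. With the length and GC correction, 0 members were called higher with doxycycline, 9 lower with dTag13 and 2 lower in the combined group against doxycycline. The medians were 0.0762 with dTag13, 0.2437 in the combined group against doxycycline and 0.0853 against dTag13. Among the single values that changed sign were those of Mrpl20 (-0.0157) and Mrpl45 (-0.14) with dTag13 alone. That of mt-Nd6 (-0.05) in the combined group against doxycycline also did. So did values not called without the correction: Mrpl9 (-0.0261), Mrpl11 (-0.0308), Mrpl22 (-0.0681) and Mrps26 (-0.0427) with dTag13 alone. Mrps18b (-0.0538) in the combined group against doxycycline was another. DESeq2 called 0 members higher with doxycycline, 2 lower with dTag13 and 0 lower in the combined group against doxycycline, and RLE size factors 1 higher with doxycycline. Leaving out 1 library gave 0 to 2 members higher and 10 to 26 lower with doxycycline (median -0.09 to -0.0514), 2 to 4 lower with dTag13, 0 to 1 lower in the combined group against doxycycline (median 0.3306 to 0.3663) and 30 to 47 in the interaction. The cause of these shifts was not tested. The replicate block called 1 member higher with doxycycline, and 23, 53, 69, 40 and 43 members in either direction in the 5 tests in the order above. Replicate numbers do not pair the libraries: deviations of same-numbered libraries correlated at -0.021 to 0.08 over 18 pairs, beside -0.061 to 0.066 for other pairs. Depth limits Mrpl36 and Mrpl23.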
